A study of Mus musculus with 6 samples.

Results

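Rab GTPases are small switch proteins that steer membrane traffic. Loaded with GTP they sit on the membrane of 1 or a few organelles and recruit effectors that tether, move or fuse vesicles, and after GTP hydrolysis a GDP dissociation inhibitor (GDI) takes them back to the cytosol. An osteoclast, the cell that resorbs bone, builds its acid-secreting ruffled border by fusing late endosomal and lysosomal vesicles with the plasma membrane, a step for which RAB7 is a known requirement. The family was taken as every gene symbol made of Rab, a number and at most 1 further letter and digit. It held 59 of the 55291 symbols in the tables. By the main known location of each protein, 7 members were placed on the early endosome, 10 in recycling, 13 on late endosomes and lysosomes, 25 in the secretory pathway and Golgi, and 4 in none of these.

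The members were measured by RNA sequencing in RAW264.7 cells, a mouse macrophage line that forms osteoclasts when given the cytokine RANKL. All cultures received RANKL at 50 ng/mL and were taken on day 4. The shCtrl libraries (n = 3) carried a control hairpin and have the genotype label WT, and the shUSP8 libraries (n = 3) carried a knockdown of Usp8, which encodes a deubiquitinating enzyme that acts on endosomal cargo. Separate cultures are not named in the labels, so a p-value here sets a difference against the spread of these 6 libraries, a spread that may be technical. The comparison asks which Rab transcripts go with reduced Usp8 in cells forming osteoclasts.

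Each library held 19973522 to 20213939 expected counts, the estimated number of fragments per gene. Usp8 (chr2:126707328-126759297, plus strand, GRCm38) was at 129.4 to 141.0 CPM (counts scaled to library size) in shCtrl and at 32.0 to 35.1 CPM in shUSP8, a difference of -2.0 on the log2 scale (SE 0.06; edgeR adjusted p = 1.47e-10). In edgeR (adjusted p under 0.05) 17.8% of all 12440 genes tested rose and 14.9% fell. Of 10 osteoclast markers 5 fell and none rose in that fit, and their summed level was 13487 to 13912 CPM in shCtrl against 11208 to 11562 CPM in shUSP8. On log2(TPM + 1), a scale corrected for transcript length, limma called Acp5, Atp6v0d2 and Mmp9 lower. Ocstamp was called higher there (0.24, limma adjusted p = 0.0429), and the other markers of this list were not called. Of 8 macrophage markers 5 rose and 2 fell in edgeR, with sums of 4263 to 4445 CPM in shCtrl against 5766 to 6340 CPM in shUSP8. Of 6 stromal markers edgeR tested 3 and called none. Col1a1, a collagen chain, had 16, 31 and 116 counts in shCtrl and 10, 10 and 8 in shUSP8, with a log2 fold change of -2.60 (edgeR adjusted p = 0.11). It was called lower in DESeq2 (adjusted p = 0.000391) and in edgeR without shCtrl_1 (adjusted p = 0.0242) or shCtrl_3 (0.0287). Col3a1 was called lower in DESeq2 (adjusted p = 0.0499) and, with Col1a2, in edgeR without shCtrl_1 (adjusted p = 0.0346 and 0.0399). The stromal markers did not all go the same way. With sparse genes kept in edgeR, Pdgfra was called higher (log2 fold change 2.22, edgeR adjusted p = 0.00985). In that fit Col3a1 (-2.04, edgeR adjusted p = 0.00161) and Col1a2 (-1.07, edgeR adjusted p = 0.0355) were called lower. Runx2 was not called there (0.14, edgeR adjusted p = 0.557). No lymphocyte marker had enough counts to be tested. Of the 5 neutrophil markers only S100a8 was tested, at 8, 7 and 5 counts against 18, 11 and 14, so it passed the filter through shUSP8, the group in which it is high. Its call (edgeR adjusted p = 0.0468) was lost in DESeq2 (adjusted p = 0.289) and in 5 of the 6 fits without 1 library (edgeR adjusted p from 0.0798 to 0.159). Alpl, Cd3e, Cd3g, Ms4a1, Elane and Ly6g were at 0 in every library. In these bulk samples fewer cells of a type and less RNA per cell cannot be told apart, and the part of the marker difference in the Rab results was not tested.

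Levels were compared between members in TPM, a scale corrected for transcript length. Rab7, the Rab of late endosomes and lysosomes, was the most abundant member, at 567.0, 553.1 and 502.5 TPM in shCtrl_1 to shCtrl_3 and at 554.4, 459.1 and 579.7 TPM in shUSP8_1 to shUSP8_3. Its groups overlapped, and its lowest library lay above the highest library of every other member. Rab5c of the early endosome came next in shCtrl (171.0 ± 4.89 TPM; SD, n = 3), then Rab11a of recycling endosomes (154.6 ± 8.67 TPM) and Rab1b of ER-to-Golgi traffic (148.2 ± 9.72 TPM). Rab11a and Rab1b, with overlapping libraries, did not differ beyond their spread, and the same held for Rab14 (105.5 ± 2.16 TPM), Rab18 (105.2 ± 6.83 TPM) and Rab31 (99.6 ± 5.17 TPM). Rab11b (95.9 ± 5.41 TPM) and Rab1a (83.1 ± 2.85 TPM) completed the first 9, which held the same ranks in shUSP8. The 10 most abundant members took 66.4% ± 0.433 of all Rab TPM in shCtrl and 65.8% ± 1.13 in shUSP8.

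**Figure D1:**
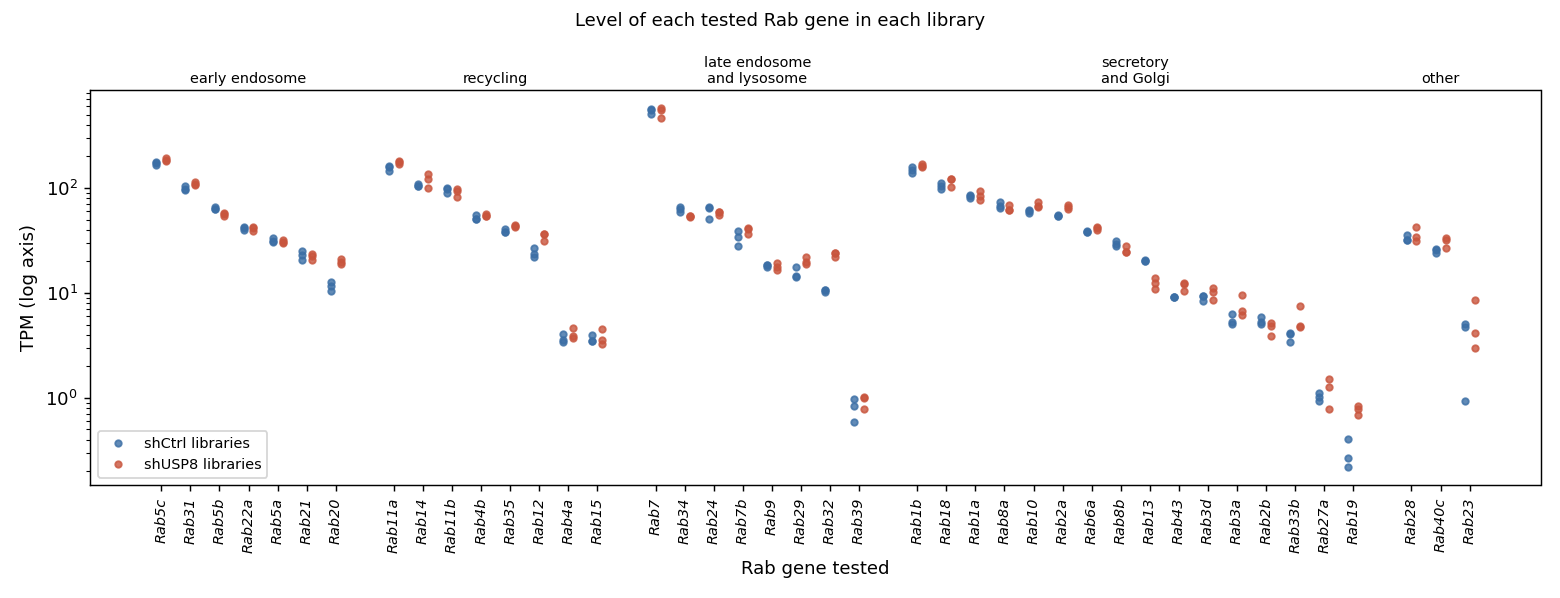
Level of each tested Rab gene in TPM (log axis), by compartment, with a point for each of the 3 shCtrl and 3 shUSP8 libraries. Rab7 lies above all other members in both groups, at 459.1 to 579.7 TPM.

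The order depends on the length correction. In CPM, which is not corrected for length, Rab11b was above Rab11a (122.1 against 62.7 CPM in shCtrl), because the mean effective length in shCtrl was 1419 nt for Rab11b and 452 nt for Rab11a. Of the 10 members highest in TPM, 7 were also among the 10 highest in CPM.

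At the other end, 17 members had too few counts to be tested: Rab3b, Rab3c, Rab6b, Rab9b, Rab17, Rab25, Rab26, Rab27b, Rab30, Rab33a, Rab36, Rab37, Rab38, Rab39b, Rab40b, Rab42 and Rab44. None exceeded 50 counts over all 6 libraries or 0.58 TPM in any of them. Rab3c, Rab9b and Rab36 had 0 counts throughout, which allows a level of up to 0.15 CPM in a library (3 counts, counting error only). Rab44, a large Rab of granules that has been studied in osteoclasts, had 20, 7 and 9 counts in shCtrl and 2, 8 and 4 in shUSP8. Without the filter on low counts it was called lower (log2 fold change -1.41; edgeR adjusted p = 0.0307), but its groups overlapped. Rab38, the near relative of Rab32, had 4, 1 and 5 counts against 2, 0 and 4. Rab30, a Golgi Rab, had 6, 3 and 4 counts against 2, 1 and 2, with no overlap of the groups in CPM. No difference is drawn from such counts.

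Of the 42 tested members, 12 (28.6%) passed the test in edgeR (Benjamini-Hochberg adjusted p under 0.05 over all genes), against 32.8% of all 12440 genes tested. Rab19, Rab32, Rab20 and Rab12 rose, which is 9.52% of the members against 17.8% of all genes. Rab13, Rab2b, Rab34, Rab8b, Rab5b, Rab24, Rab11b and Rab5a fell, 19.0% against 14.9%. The share of members called was thus near that of the transcriptome. The median log2 fold change was -0.01 over the members and -0.00 over all genes. Fold changes ran from -0.87 to 1.21. Rab19 and Rab32 were the only members called with at least a 2-fold difference, a size that 5.35% of all genes reached. All libraries of a group lay above the other group for 8 members and below it for 9, against 24.6% and 23.1% of all genes.

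**Figure D2:**
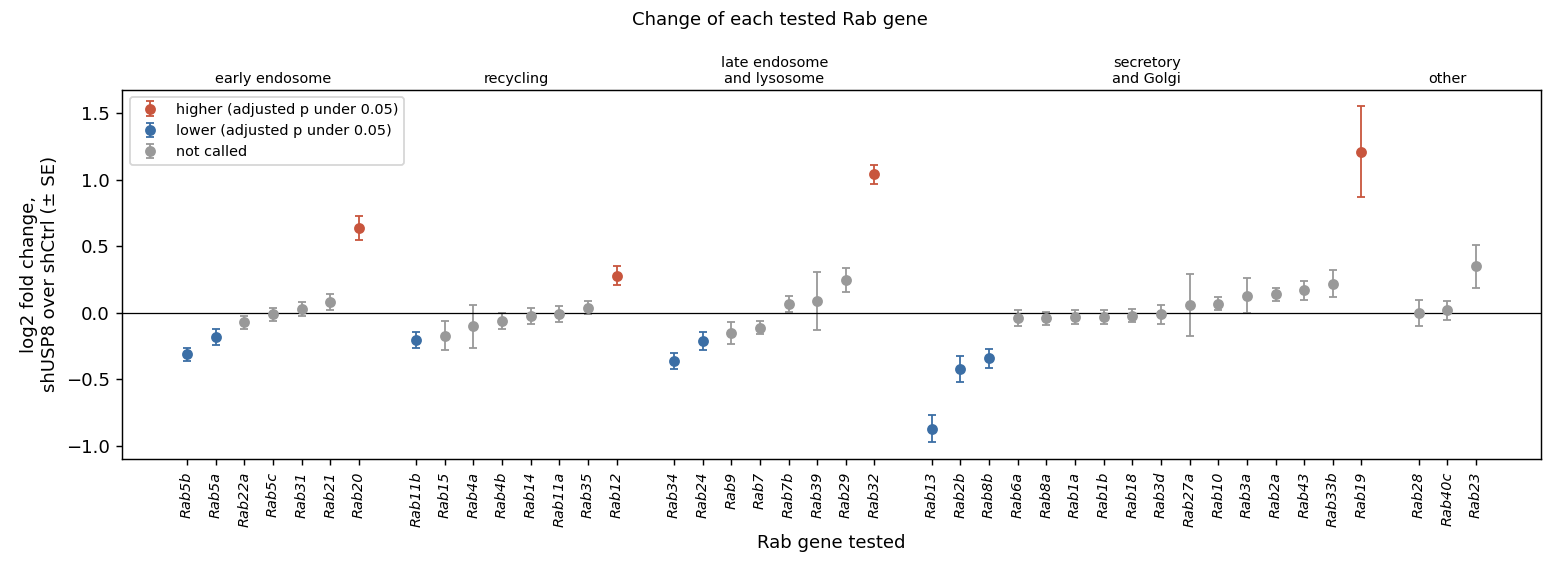
Fitted log2 fold change (shUSP8 minus shCtrl) with its SE for the 42 tested Rab genes, grouped by compartment and coloured by the edgeR call. Most members lie near 0, and the called members run from -0.87 (Rab13) to 1.21 (Rab19).

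The calls were spread over the compartments. On the early endosome 1 of 7 tested members rose and 2 fell (median log2 fold change -0.01), and in recycling 1 of 8 rose and 1 fell (-0.04). Among late endosomal and lysosomal members 1 of 8 rose and 2 fell (-0.02). In the secretory pathway and Golgi 1 of 16 rose and 3 fell (-0.02), and none of the 3 tested members without a compartment was called. No compartment median departed from that of all genes by more than 0.04, and each compartment held members called in both directions or none.

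On late endosomes and lysosomes, Rab32, which serves lysosome-related organelles and mitochondria-associated membranes, rose 2.06-fold. It lies at chr10:10545002-10558265 on the minus strand (GRCm38). Its levels were 16.7, 16.7 and 17.7 CPM in shCtrl and 33.5, 36.8 and 34.8 CPM in shUSP8. The groups were far apart relative to their spread (means 17 ± 0.61 and 35.0 ± 1.69 CPM), with a log2 fold change of 1.04 ± 0.07 (SE) and an edgeR adjusted p of 2.03e-07. In the order of TPM, Rab32 moved from place 31 to place 26 of the family. Rab34, linked to lysosome position and macropinocytosis, fell, with 61.1, 55.9 and 60.1 CPM against 48.9, 45 and 43.6 CPM. Its groups did not overlap (log2 fold change -0.36, SE 0.06; edgeR adjusted p = 7.72e-04).

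Rab7 itself did not pass the test. It was at 525.8, 498.0 and 513.5 CPM in shCtrl and 499.9, 456.8 and 468.6 CPM in shUSP8, and shUSP8_1 lay within the shCtrl range (log2 fold change -0.11, SE 0.05; edgeR adjusted p = 0.139). Without shUSP8_1 it was called lower (-0.15; edgeR adjusted p = 0.0398). Rab24, an atypical Rab tied to autophagy, fell by 0.21 on the log2 scale (50.4, 50.9 and 43.1 against 41.2, 41.7 and 42.2 CPM; SE 0.07; edgeR adjusted p = 0.0384). Of its exonic bases 62.4% are shared with Prelid1 on the opposite strand. Whether the counting used strand is not given in the sources used here, so this value is uncertain. Rab9, which returns mannose 6-phosphate receptors to the Golgi, was lower in every shUSP8 library but did not pass (log2 fold change -0.15; edgeR adjusted p = 0.181). Rab29, a lysosomal Rab that recruits LRRK2, had the opposite sign (0.25; edgeR adjusted p = 0.0551) and was called higher without shCtrl_1 (edgeR adjusted p = 0.0472). Rab7b and Rab39 had values of 0.07 and 0.09. Late endosomal members thus stood on both sides of 0, with the most abundant of them not called.

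On the early endosome, Rab20, known from maturing phagosomes, rose 1.55-fold. Its levels were 11, 12.3 and 10.6 CPM in shCtrl and 19.2, 17.4 and 16.3 CPM in shUSP8, with no overlap (log2 fold change 0.64, SE 0.09; edgeR adjusted p = 2.36e-04). Of its exonic bases 25.6% are shared with a noncoding gene on the opposite strand. The 3 Rab5 genes encode close relatives that drive fusion of early endosomes. Rab5b fell, at 160.7, 158.5 and 164.6 CPM against 132.6, 127.1 and 129.6 CPM, with a gap between the groups (log2 fold change -0.31, SE 0.05; edgeR adjusted p = 2.97e-04). Rab5a fell less, at 59.3, 57.4 and 59.4 CPM against 51.2, 55.1 and 49.5 CPM (-0.18, SE 0.06; edgeR adjusted p = 0.0312). Rab5c, the most abundant of the 3, was at 246.0, 245.5 and 248.6 CPM against 260.6, 239.7 and 235.4 CPM, and its groups overlapped (-0.01, SE 0.05; edgeR adjusted p = 0.918). As a share of the TPM of the 3 genes, Rab5c went from 64.2% ± 0.389 to 68.3% ± 0.835 and Rab5b from 23.9% ± 0.284 to 20.5% ± 0.602, in both cases with no overlap and with no test made of these shares. Rab31 (0.03), Rab22a (-0.07) and Rab21 (0.08), which act between early endosomes and the Golgi or in integrin uptake, did not pass. Rab31 was nearly level, at 287.8, 277.5 and 277.5 CPM against 288.2, 282.9 and 287.8 CPM.

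Rab12 was placed in recycling, although it sends transferrin receptor to lysosomes and not back to the plasma membrane. It rose, at 36.4, 33.8 and 33.2 CPM in shCtrl against 39.6, 44.8 and 40.8 CPM in shUSP8. The groups did not overlap, and the difference was small in size (log2 fold change 0.28, SE 0.07; edgeR adjusted p = 0.00838). Rab11b fell from 120.8, 128.0 and 117.3 CPM to 114.6, 99.3 and 105.7 CPM (-0.20, SE 0.06; edgeR adjusted p = 0.0269). Its sister Rab11a had the values 62.7, 62.6 and 62.7 CPM against 68.5, 58.0 and 60.6 CPM, so the shUSP8 libraries lay on both sides of the controls (-0.01, SE 0.06; edgeR adjusted p = 0.948). Rab11a made up 61.7% ± 0.157 of the TPM of the pair in shCtrl and 66.0% ± 1.31 in shUSP8, with no overlap and no test made. Such shares rest on how RSEM divided fragments that match more than 1 gene. Rab14, the most abundant recycling member in CPM, was not called, at 194.6, 200.9 and 208.5 CPM against 202.4, 184.3 and 207.2 CPM (-0.02). Rab4a (-0.10), Rab4b (-0.06), Rab15 (-0.17) and Rab35 (0.04) did not pass either, and 65.0% of the exonic bases of Rab4b also belong to a readthrough gene model on the same strand.

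In the secretory pathway, Rab13, a Rab of exocytic carriers and cell junctions, fell 1.82-fold. It lies at chr3:90213695-90226385 on the plus strand (GRCm38). Its levels were 14.4, 14.7 and 15.1 CPM in shCtrl and 8.49, 6.85 and 8.89 CPM in shUSP8. This was the lowest fold change of the 42 members, and the groups were well separated (log2 fold change -0.87, SE 0.10; edgeR adjusted p = 4.85e-05). Rab8b, which carries cargo from the Golgi to the plasma membrane, fell, at 108.8, 116.1 and 129.2 CPM against 89.7, 92.4 and 97.4 CPM (-0.34, SE 0.07; edgeR adjusted p = 0.00169). Its near copy Rab8a did not pass, at -0.04 on the log2 scale (SE 0.05; edgeR adjusted p = 0.631). Rab2b, a Rab between ER and Golgi, fell, at 12.1, 10.8 and 12.5 CPM against 8.20, 9.27 and 9.03 CPM (-0.42, SE 0.10; edgeR adjusted p = 0.00573). Its share of the TPM of Rab2a and Rab2b went from 9.09% ± 0.764 to 6.57% ± 1.02, with no overlap. Of its exonic bases 59.3% overlap a gene model on the opposite strand, which makes the value uncertain. Rab2a itself had the opposite sign and missed the threshold (0.14; edgeR adjusted p = 0.0516). It was called higher without shUSP8_2 (edgeR adjusted p = 0.0313).

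Rab19, a Golgi Rab, had the largest positive value of the family on few counts: 9, 6 and 5 in shCtrl and 15, 18 and 16 in shUSP8 (log2 fold change 1.21, SE 0.34; edgeR adjusted p = 0.0165). The filter asks for about 10 counts in each of 3 libraries, so Rab19 was tested because of its level in shUSP8, the group in which it is high. The call was lost without shCtrl_2 (edgeR adjusted p = 0.0714), without shCtrl_3 (edgeR adjusted p = 0.0727) and in DESeq2 (adjusted p = 0.166).

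The abundant housekeeping Rabs of the secretory route were not called. Rab1b was at 206.0, 204.9 and 196.1 CPM in shCtrl and 207.3, 190.7 and 196.0 CPM in shUSP8 (log2 fold change -0.03), and Rab18 of the ER and lipid droplets at 83.0, 79.8 and 87.1 against 80, 81.1 and 85.1 CPM (-0.02). Rab1a (-0.03), Rab6a (-0.04) and Rab10 (0.07) also had overlapping groups. Rab3d, a granule Rab known from the osteoclast ruffled border, was at 27.4, 25.3 and 26.2 CPM against 27.4, 25.6 and 25.3 CPM (-0.01, SE 0.07; edgeR adjusted p = 0.911). Rab27a, which docks lysosome-related organelles at the plasma membrane, had 41, 44 and 54 counts against 62, 35 and 55, too scattered to show a small difference (0.06, SE 0.23). Rab3a (0.13), Rab33b (0.22) and Rab43 (0.17) did not pass, although Rab33b (edgeR adjusted p = 0.0387) and Rab43 (edgeR adjusted p = 0.0134) were called higher without shUSP8_1. Of the exonic bases of Rab43, 75.4% also belong to another gene model on the same strand. Of the members without a compartment, Rab23, a Rab of Hedgehog signalling, had the highest value (0.35, SE 0.16; edgeR adjusted p = 0.11), with Rab28 at 0.00 and Rab40c at 0.02. The secretory members that passed were thus Rab13, Rab8b, Rab2b and Rab19, none of them among the 3 most abundant of that compartment in TPM.

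**Figure D3:**
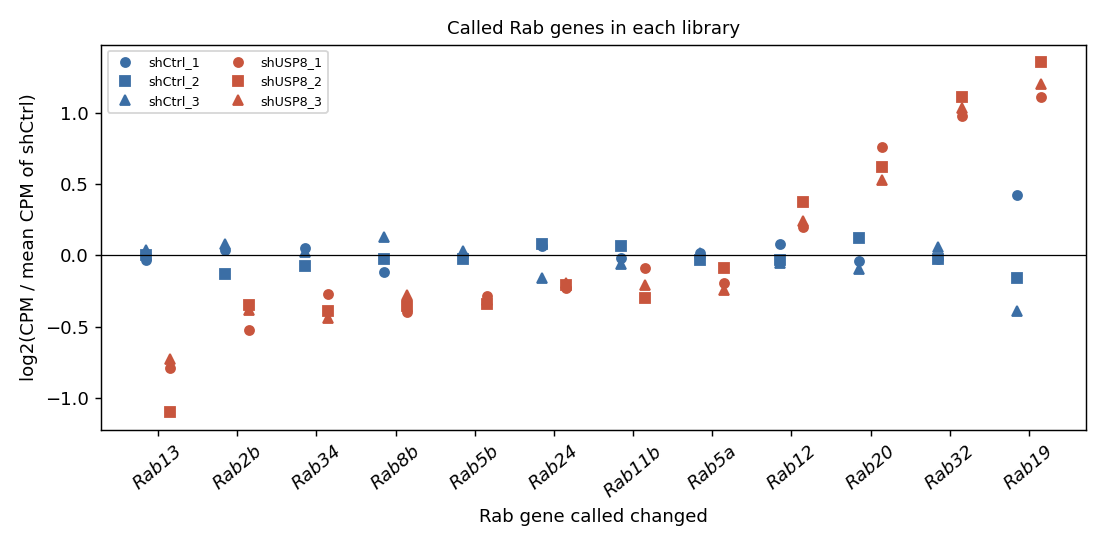
Log2 of CPM over the mean shCtrl CPM of the same gene for the 12 called Rab genes, with a symbol for each of the 6 libraries and a line at 0 for the shCtrl mean. The groups of no called member overlap, and Rab32 shows a wide gap with little scatter, from 16.7 to 17.7 CPM in shCtrl to 33.5 to 36.8 CPM in shUSP8.

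Leaving out each library in turn, 8 of the 12 calls were kept in all 6 fits, 3 of the higher and 5 of the lower members. The 4 that were not all lost it more than once. Rab24 was not called without shCtrl_1 (edgeR adjusted p = 0.14), shCtrl_2 (0.171), shUSP8_2 (0.0592) or shUSP8_3 (0.0917). Rab11b lost its call without the same libraries, with edgeR adjusted p of 0.066, 0.132, 0.0735 and 0.0919 in that order. Rab5a lost it without shCtrl_1 (edgeR adjusted p = 0.0931), shCtrl_2 (0.069), shCtrl_3 (0.0883) or shUSP8_3 (0.135), and Rab19 as given above. Rab12, Rab13, Rab20, Rab32 and Rab34 kept their call in all 6 of these fits and in all 11 other alternatives run.

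The summed level of the family depended on the scale. In TPM the sum was 2367 ± 98.5 in shCtrl and 2491 ± 129 in shUSP8, a ratio of 1.053 with overlapping groups, whereas in CPM the ratio was 0.97 with every shUSP8 library lower. The early endosome set shows the same opposition, at 1.056 in TPM with every shUSP8 library higher and 0.969 in CPM with every shUSP8 library lower. On log2(TPM + 1) the median over all genes lay at 0.11 and that over the members at 0.12, so both scales place the family near the transcriptome. As shares of Rab TPM, late endosomal and lysosomal members took 31.4% ± 0.815 in shCtrl and 29.8% ± 1.34 in shUSP8, and recycling members 20.2% ± 0.209 and 21.1% ± 0.311. Early endosomal members took 18.7% in both groups. No direction is drawn for any summed set, since the sign changed with the scale or the groups overlapped.

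The scales differ in their construction in 2 ways. CPM here carries TMM factors, 0.958 to 0.984 in shCtrl and 1.019 to 1.033 in shUSP8, which TPM lacks, and with library totals alone the median over all genes was already 0.07. TPM also divides each count by an effective length, the length open to sequencing averaged over the transcripts that RSEM assigned to the gene. This length could be compared for 38 members. In Rab21 it was 2875, 2691 and 3003 nt in shCtrl and 3327, 3305 and 3520 nt in shUSP8, which is 18.5% longer with no overlap. Rab8a was 13.1% longer (1560, 1615 and 1588 against 1902, 1747 and 1738 nt), and Rab1a 3.6% longer. Rab12 was shorter by 8.6%, at 1574, 1618 and 1624 against 1541, 1428 and 1432 nt. Across the family 3 of 38 members were longer and 1 was shorter without overlap, against 2.77% and 4.74% of 10655 genes. The mean fragment was 368.0 nt in shUSP8_2 and 291.7 to 309.2 nt in the other 5 libraries, and the part of this gap in the lengths was not tested.

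**Figure D4:**
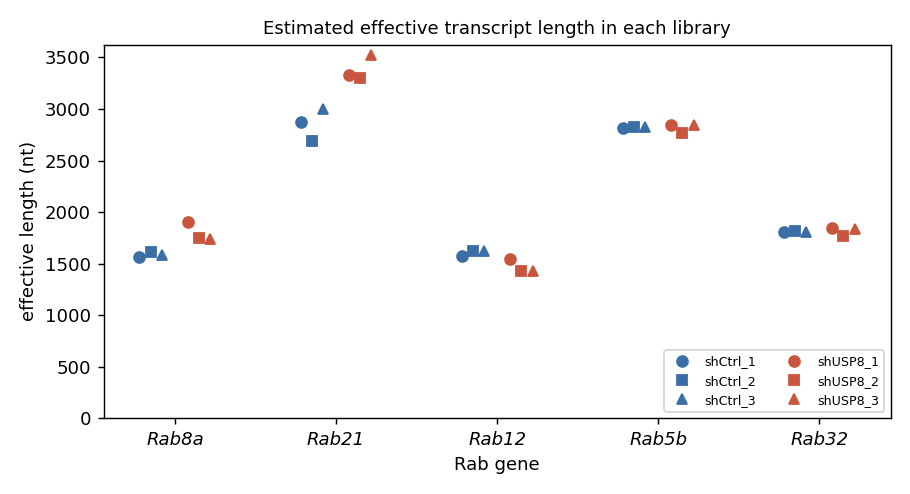
Effective length in nt of Rab8a, Rab21, Rab12, Rab5b and Rab32, with a symbol for each of the 6 libraries. The shUSP8 points lie above all shCtrl points for Rab8a and Rab21 and below them for Rab12, while those of Rab5b and Rab32 overlap.

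With effective lengths entered as offsets in edgeR, 4 members were higher and 5 lower, against 12.2% and 9.9% of all genes. Rab8a was called lower (log2 fold change -0.23; edgeR adjusted p = 0.0302), and Rab21, not called in either fit, turned from 0.08 to -0.17 (adjusted p = 0.173). Rab12 stood at 0.40 (adjusted p = 0.0107). The calls of Rab2b (-0.37; adjusted p = 0.0859), Rab24 (adjusted p = 0.137), Rab11b (adjusted p = 0.0815) and Rab5a (adjusted p = 0.0737) were lost in this edgeR fit. In limma on log2(TPM + 1), 7 members were higher and 2 lower, against 19.1% and 4.02% of all genes. Rab5b (-0.19; adjusted p = 0.0532), Rab8b (-0.21; adjusted p = 0.0964) and Rab2b (-0.20; adjusted p = 0.258) lost their calls there, as did Rab24, Rab11b and Rab5a (limma adjusted p = 0.691, 0.494 and 0.636). Rab29, Rab2a and Rab43, by contrast, were called higher on that scale (limma adjusted p = 0.039, 0.0169 and 0.0422). Scaling by library totals gave 9 higher and 5 lower members, against 25.0% and 9.42% of all genes. Rab32 and Rab13 moved little, at 1.02 and -0.84 with offsets. Rab32, Rab20, Rab12, Rab13 and Rab34 were called on every one of these scales. Rab19 was also called on them, but it was tested because of its level in shUSP8, the group in which it is high. Its call was lost in DESeq2 (adjusted p = 0.166).

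The proteins that drive the Rab cycle were examined from lists of known regulators. Of 8 genes for prenylation and membrane extraction, none rose and 2 fell (25.0% called, against 32.8% of all genes). Gdi2, a GDI that extracts GDP-bound Rabs from membranes, fell by 0.18 on the log2 scale (602.2 ± 34.2 to 530.9 ± 4.80 CPM; SE 0.05; edgeR adjusted p = 0.0225). Its call was lost without shCtrl_3 (edgeR adjusted p = 0.081) or shUSP8_3 (edgeR adjusted p = 0.08). It was also lost on log2(TPM + 1) (limma adjusted p = 0.341), with library totals (edgeR adjusted p = 0.128) and with a replicate block (edgeR adjusted p = 0.0555).

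Of 34 exchange factors, which load Rabs with GTP, 13 rose and 5 fell (52.9% called, against 32.8% of all genes; median log2 fold change -0.01). By direction, 38.2% rose against 17.8% of all genes, and 14.7% fell against 14.9%. Rab3il1, an exchange factor of Rab3 and Rab8 proteins, rose from 5.04 ± 0.464 to 11.3 ± 0.522 CPM (1.16, SE 0.11; edgeR adjusted p = 4.44e-06). Dennd3, the exchange factor of Rab12, rose from 4.77 ± 0.307 to 9.18 ± 1.15 CPM (0.94, SE 0.12; edgeR adjusted p = 9.56e-05). Als2cl and Rin1, both tied to Rab5, rose by 0.69 and 0.56 on the log2 scale, but neither was called with effective-length offsets (0.31 and 0.49; edgeR adjusted p = 0.1 and 0.157). With offsets 7 of the 34 exchange factors were called higher and 4 lower, where 12.2% and 9.9% of all genes were.

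Of 31 GTPase-activating proteins, which switch Rabs off, 2 rose and 10 fell (38.7% called, against 32.8% of all genes; median -0.09). By direction, 6.45% rose against 17.8% of all genes, and 32.3% fell against 14.9%. Tbc1d16, which acts on Rab4, rose from 47.6 ± 3.88 to 76.7 ± 5.95 CPM (0.69, SE 0.07; edgeR adjusted p = 2.04e-05). Tbc1d2b (225.9 ± 11.1 to 159.0 ± 9.08 CPM; log2 fold change -0.51), Sgsm2, an activator of Rab32 and Rab38 hydrolysis (33.6 ± 0.192 to 24.6 ± 1.17 CPM; -0.45), and Tbc1d24 (96.8 ± 4.81 to 67.3 ± 7.36 CPM; -0.52) fell. With library totals 6 of the 31 genes of this list were called lower in edgeR (9.42% of all genes) and on log2(TPM + 1) 3 in limma (4.02% of all genes). The effector list also holds the Rab kinases Lrrk1 and Lrrk2. Of its 33 genes tested, 4 rose and 9 fell (39.4% called, against 32.8% of all genes, median -0.04). That is 12.1% higher and 27.3% lower against 17.8% and 14.9%. Rilpl2, bound by Rabs that LRRK kinases have phosphorylated, fell (-0.51, SE 0.05; edgeR adjusted p = 7.86e-06), as did Micall1, a partner of Rab8 and Rab35 on recycling tubules (-0.60, SE 0.06; edgeR adjusted p = 1.39e-05). Mical1, an actin oxidase recruited by Rabs, rose on few counts, 9, 6 and 9 against 41, 26 and 33. Rab11fip4, a Rab11 effector, had 7, 11 and 7 counts against 48, 24 and 39. These 2 of the 4 genes of the effector list that rose passed the filter through shUSP8, the group in which they are high. The lean of the effector list to lower calls was not held on log2(TPM + 1). There limma called Rilpl2 and Micall1 lower, and Mical1, Rab11fip1, Rab11fip3, Rab11fip4 and Myo5a higher. With effective-length offsets edgeR called Golga2, Micall1, Rilpl1, Rilpl2 and Rufy1 lower, and Mical1 and Rab11fip4 higher. On log2(TPM + 1) 8 of the 34 exchange factors were called higher and 0 lower in limma, against 19.1% and 4.02% of all genes.

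**Figure D5:**
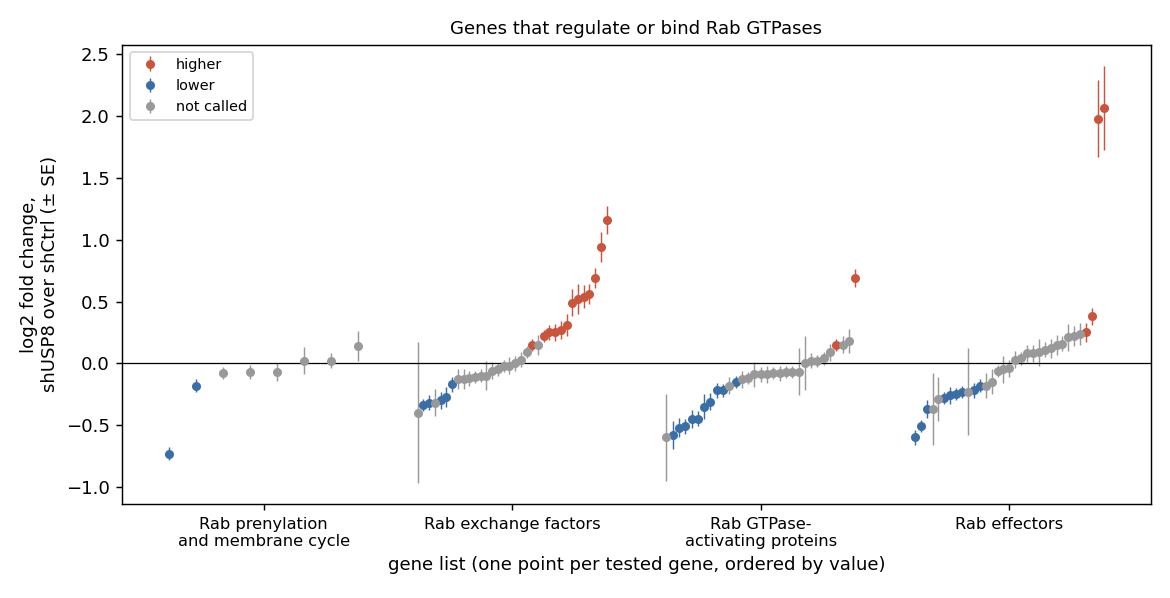
Fitted log2 fold change (shUSP8 over shCtrl) with its SE for each tested gene of the 4 lists of Rab regulators and effectors, ordered by value within a list and coloured by the edgeR call. Called exchange factors lie mostly above 0 (13 higher, 5 lower) and called GTPase-activating proteins mostly below it (2 higher, 10 lower).

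The promoters of the called members were read to show what precedes their RefSeq start sites, which can differ from the gene ends given above from GENCODE. RefSeq (GRCm38.p6) promoters were found for 48 of 59 members, with 60 start sites, and for all 12 called members. In the 250 bases before each start, 6 motifs of factors known in macrophages and osteoclasts were searched on both strands. CACGTG, the core of the E-box bound by TFEB and MITF, was in 8.33% of Rab promoters and 6.02% of all 32851. Its 8-letter form TCACGTGA, which contains that core, was in 3.33% (2 Rab promoters) and 0.785%. GAAA, any 2 bases and GAAA, an interferon response element, was in 1.67% and 2.98%, TGANTCA, an AP-1 site, in 3.33% and 6.75%, GAGGAAGT, a PU.1 site, in 3.33% and 2.44%, and TGACNNNGC, an antioxidant response element, in 11.7% and 10.2%. The 6 shares rest on at most 7 Rab promoters each, and a match is a description of letters, not a site shown to be bound. The median share of G and C in these 250 bases was 60.2% for Rab promoters and 52.4% for all. Its part in the motif shares was not tested. Members not called also held matches, such as Rab7, Rab8a and Rab21. The share of all promoters with at least 1 of the 6 motifs was not computed, so no excess is drawn here. Of the 12 called members 7 held a match. The 30 bases around 1 match in each are printed below on the strand of the gene, with the motif or its reverse complement in capitals.
Rab19: agtgggagggattgcccttgTTTCCCTTTC
Rab20: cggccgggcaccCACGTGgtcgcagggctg
Rab2b: ccgagcgcgtcACTTCCTCaaggagaaagc
Rab32: tagccagggaaGAGGAAGTgccgggaccag
Rab34: ggcagactctaTGAGTCAtgtgccaggcct
Rab5a: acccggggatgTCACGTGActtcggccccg
Rab8b: cggagggtgaTGACAAGGCgcgggcagatt
Coordinates in brackets below are those of the 30-base windows. The Rab32 match lies at -43 to -36 from the start (chr10:10558232-10558261, minus strand). That of Rab2b, read on the opposite strand, lies at -175 to -168 (chr14:52279552-52279581, minus strand). Both are PU.1 letters. Rab32 rose and Rab2b fell, and a link between motif letters and direction was not tested. The E-box core lies at -46 to -41 in Rab20 (chr8:11478669-11478698, minus strand), which rose. In Rab5a, which fell, the core lies within the 8-letter form at -96 to -89 (chr17:53479127-53479156, plus strand). Rab5a holds a further CACGTG at -235 to -230, for which no window is printed. Rab19 has the interferon response letters at -10 to -1 on the opposite strand (chr6:39381323-39381352, plus strand). Rab34 has the AP-1 letters at -58 to -52 (chr11:78188358-78188387, plus strand), and Rab8b the antioxidant response letters at -114 to -106 (chr9:66919800-66919829, minus strand). The windows of Rab32, Rab20 and Rab19 lie before a RefSeq start but inside the GENCODE gene, which begins farther upstream. No match was found in the 250 bases for Rab5b, Rab11b, Rab12, Rab13 and Rab24.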

How the data were processed

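The deposited tables hold 6 libraries. The authors deposited RSEM expected counts, of which 7.162% are not whole, and TPM values, in which the authors' counts are corrected for effective length and put on a common sum. RSEM, DESeq2 1.28.1 and mm10 are named in the submitters' processing notes; the aligner and the annotation are not given in the sources used here. Columns named WT were matched to shCtrl by label and number. KO columns were matched to shUSP8 because only 1 other genotype label exists. Of 142604 transcripts, 140751 were found in GENCODE M21 (GRCm38), which gave coordinates and exon overlaps.

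Expected counts were rounded and tested over all genes with a robust quasi-likelihood F test (edgeR 4.0.16, R 4.3.3; TMM; filterByExpr with a minimum count of 10 and total of 15), Benjamini-Hochberg adjustment and a threshold of 0.05. CPM values use TMM factors. SE is the size of the log2 fold change over the root of F. Effective length was the ratio of expected count to TPM, scaled by the transcript lengths of genes with 1 transcript, in members with at least 1 TPM in every library. Compartment sums were means of TPM sums with no test. The pipeline was tested on simulated data. Alternatives were RLE, upper-quartile and library-total scaling, no filter, DESeq2 1.42.0, limma 3.58.1 (voom, and trend on log2(TPM + 1) and log2(TPM + 0.1)), unrounded counts, effective-length offsets, a replicate block, each library left out, and CPM in place of TPM for levels. Figures used Python 3.11.15 and matplotlib 3.10.9.

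The members and lists were chosen with earlier results of these data known. Members described library by library are the 10 called members with the largest change and no overlap of the groups, per compartment the 2 called by smallest p and the 2 highest in TPM, and 11 with a known place in osteoclasts or macrophages. Of each regulator list up to 4 called genes are named by smallest p. Some genes that these rules select are not reported here. Further values were given after they were seen.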

Additional observations from a re-analysis of the deposited data

How the results depend on the processing

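Over the 42 tested members no called value changed sign under any alternative run. RLE and upper-quartile factors, no filter, limma-voom and unrounded counts left every one of the 42 on its side of the threshold, and no filter added Rab44. Against 4 higher and 8 lower calls, library totals gave 9 and 5, limma on log2(TPM + 1) and on log2(TPM + 0.1) gave 7 and 2 each, and effective-length offsets gave 5 lower. The member median was 0.06 with library totals, 0.12 on log2(TPM + 1) and 0.14 on log2(TPM + 0.1), where that of all genes was 0.07, 0.11 and 0.13. Over all genes the calls were 17.8% higher and 14.9% lower in edgeR, 25.0% and 9.42% with library totals, 19.1% and 4.02% on log2(TPM + 1), and 12.2% and 9.9% of 12379 genes with offsets. Leaving out 1 library gave 3 to 6 higher and 5 to 9 lower calls, medians of -0.03 to 0.02 and Usp8 values of -2.03 to -1.96. In CPM in place of TPM the ratio of summed levels was 0.97 for the family (1.053 in TPM), 0.969 for the early endosome (1.056), 0.978 for recycling (1.098) and 0.978 for the secretory set (1.065). The cause of these moves was not tested.

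A fit with the replicate number as a block gave 4 higher and 6 lower calls, losing Rab24 (edgeR adjusted p = 0.054) and Rab5a (0.0523). Same-numbered libraries had correlations of deviations of -0.007, 0.078 and -0.054, so the numbers were not taken as pairs. DESeq2 lost Rab19 (adjusted p = 0.166), Rab24 (0.0837) and Rab5a (0.0872). Depth limits the 17 untested members and Rab19. The chi-square per gene was 2.29 between shCtrl_1 and shCtrl_2, and 5.06 and 6.48 for the other shCtrl pairs. It was higher for every shUSP8 pair, at 8.8, 9.61 and, between shUSP8_1 and shUSP8_2, 18.5.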
